A study of Homo sapiens with 4 samples.

Results

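The genes described here are 10 components of the insulin-like growth factor (IGF) axis in A549 cells. They are the binding protein genes IGFBP1, IGFBP2, IGFBP3, IGFBP4 and IGFBP6, the receptor genes IGF1R, IGF2R and INSR, and the adaptor genes IRS1 and IRS2. They were chosen by symbol from the 15037 genes of a count table that lists a gene only where its largest count over the libraries is at least 6, and the choice was made with earlier results of these data known. All 10 were in the table, with 45 to 18886 counts in a library, so none lay near that limit, and all 10 passed the filter for testing. Further binding protein genes of the table, IGFBP5 and IGFBP7, are not on that list and are given with the rest of the pathway. The ligand genes IGF1, IGF2 and INS were not analysed here.

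A549 is a much used cell line derived from a human lung carcinoma, of epithelial type, and was grown in DMEM. The study compared 2 libraries of polyadenylated RNA from A549 cells with a knockdown of PSME4, which encodes an activator that docks on the proteasome core (PSME4 KD), with 2 libraries from A549 cells whose genotype is given as RFP KD (control KD). The labels do not give the knockdown reagent, whether the cells were a pool or a clone, or whether the replicates were grown apart from each other. The p-values therefore measure only how these libraries spread, which may be technical. Totals were 15208588 and 14845701 counts in PSME4 KD 1 and 2 and 11766371 and 11769392 in control KD 1 and 2. PSME4 itself had 75.3 and 85.1 CPM (counts scaled to a common library total with TMM factors) in PSME4 KD, against 157.8 and 180.3 CPM in control KD (log2 fold change −1.08, SE 0.20, adjusted p = 0.000855 by edgeR). Of 6 epithelial marker genes all were listed, with a summed level of 4006.3 to 5160.1 CPM in PSME4 KD and 3701.5 to 4582.5 CPM in control KD, and none passed the test. Of 16 markers of leukocytes, endothelium and fibroblasts, 8 were listed. Their summed levels were 39.3 to 39.4, 12.6 to 14.7 and 26.4 to 28.6 CPM in PSME4 KD and 29.1 to 33.8, 14.6 to 16.2 and 17.2 to 21.2 CPM in control KD. Of 3 tested fibroblast markers 2 passed the test, COL1A1 and PDGFRA, beside 10.6% of all tested genes. No tested marker of leukocytes or endothelium passed. The part of these markers in the results below was not tested.

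IGFs act on cells through IGF1R, a receptor tyrosine kinase, and through the closely related insulin receptor INSR. Secreted IGF binding proteins hold the ligands and limit or prolong their access to the receptors. The activated receptors phosphorylate the adaptors IRS1 and IRS2, which recruit phosphoinositide 3-kinase and start signalling through the kinase AKT. AKT in turn keeps FOXO transcription factors out of the nucleus, and in liver the IGFBP1 and IRS2 genes are classical FOXO targets that insulin represses. IGF2R has no kinase domain and carries IGF2 and mannose 6-phosphate-tagged enzymes to the lysosome. In many carcinoma cells IGF1R supports growth and survival.

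IGFBP1, IGFBP2, IGFBP3 and IGFBP4 share a run of bases in the part that codes for the cysteine-rich start of the protein, which is shown because it lies in all 4 genes. The letters below are from the coding sequences of GENCODE 29 transcripts (GRCh38), 5′ to 3′ on the coding strand, and the capitals mark the 11 bases that are identical in the genes.
IGFBP1: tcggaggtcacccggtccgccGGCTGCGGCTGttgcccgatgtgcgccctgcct
IGFBP2: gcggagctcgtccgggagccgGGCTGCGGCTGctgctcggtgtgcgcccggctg
IGFBP3: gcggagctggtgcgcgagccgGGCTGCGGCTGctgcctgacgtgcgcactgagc
IGFBP4: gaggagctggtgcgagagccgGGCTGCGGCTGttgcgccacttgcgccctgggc
The capitals start at base 166 of the coding sequence of IGFBP1, 247 of IGFBP2, 196 of IGFBP3 and 154 of IGFBP4, and the run is not in the coding sequence of IGFBP6. Over longer stretches the genes diverge, which bears on whether a read can be assigned to one of them. The longest identical run between IGFBP1 and another of the 5 binding proteins was 15 bases, with IGFBP4, and between any pair of the 5 it was 21 bases, for IGFBP2 and IGFBP3. The receptors IGF1R and INSR shared a run of 23 bases, and IRS1 and IRS2 one of 24 bases, in capitals below.
IGF1R: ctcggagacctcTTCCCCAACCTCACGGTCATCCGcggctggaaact
INSR: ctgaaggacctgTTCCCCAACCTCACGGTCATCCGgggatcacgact
IRS1: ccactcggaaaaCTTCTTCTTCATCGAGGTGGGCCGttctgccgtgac
IRS2: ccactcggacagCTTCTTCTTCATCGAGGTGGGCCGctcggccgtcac

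IGFBP1 was the member that changed. Its mRNA fell 4.67-fold in PSME4 KD cells, while none of the other 9 genes passed the test. IGFBP1 had 22.4 and 15.7 CPM in PSME4 KD 1 and 2, against 106.6 and 71.5 CPM in control KD 1 and 2. Both PSME4 KD libraries lay far below both control KD libraries, a gap wider than the spread within either group. The mean was 19 ± 4.75 CPM in PSME4 KD and 89.0 ± 24.8 CPM in control KD (SD, n = 2 each), from 580 and 2063 counts. The log2 fold change of PSME4 KD over control KD was −2.22 (SE 0.23, 95% interval −2.70 to −1.75), and the quasi-likelihood test of edgeR gave an adjusted p of 3.33e-07 (Benjamini-Hochberg, 13497 genes tested). The authors' deposited table gives IGFBP1 a log2 fold change of 2.22 for control KD over PSME4 KD, the opposite order, with an adjusted p of 8.14e-14. With 1 library left out the value stayed between −2.50 and −1.91 and the gene passed in all 4 such fits. In a culture measured in bulk, less IGFBP1 mRNA per cell and fewer cells that express it cannot be told apart.

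Among the 10 members 1 fell, 0 rose and 9 did not pass, and no member other than IGFBP1 had an unadjusted p under 0.05 by edgeR. DESeq2 and limma voom also called IGFBP1 alone. Over all tested genes 10.6% passed, 4.56% higher and 6.0% lower, so 1 in 10 members is near that share. The median log2 fold change was 0.07 over the members and −0.0021 over all tested genes, and the median of its absolute size was 0.24 over the members and 0.31 over all tested genes. For 6 of the members, PSME4 KD and control KD libraries did not overlap, 4 higher and 2 lower in PSME4 KD, beside 55.0% of all tested genes, which is again near the background. Because the members were chosen with results known, their p-values give their place in the fit over all genes and are no independent evidence.

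**Figure D1:**
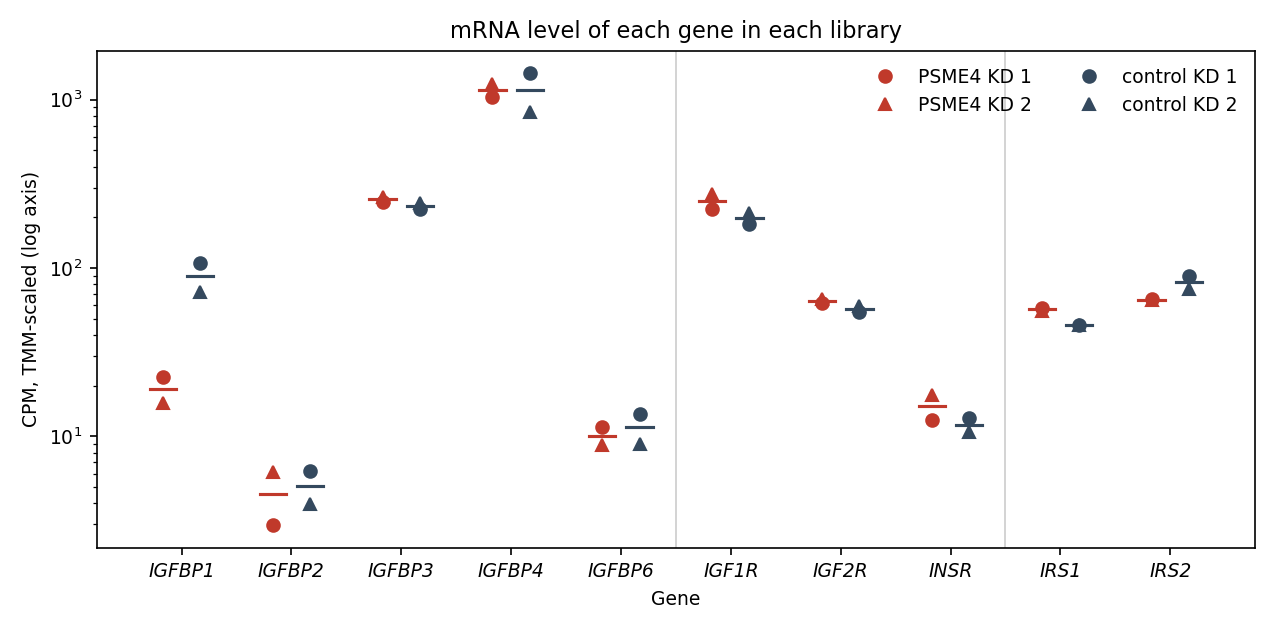
CPM (TMM-scaled, log axis) of the 10 genes in each library, PSME4 KD left of control KD for each gene; circles are replicate 1, triangles replicate 2 and short lines the group means. IGFBP1 stands at 22.4 and 15.7 CPM in PSME4 KD against 106.6 and 71.5 CPM in control KD, while the groups of the other genes lie close together or overlap.

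IGFBP3, which encodes the main carrier of IGFs in blood and lies next to IGFBP1, did not pass the test. It had 247.9 and 262.1 CPM in PSME4 KD, against 222.6 and 242.1 CPM in control KD. The libraries did not overlap, but the log2 fold change was 0.13 (SE 0.19) and the adjusted p 0.702 by edgeR. On GRCh38 IGFBP1 lies at chr7:45888488-45893660 and IGFBP3 at chr7:45912245-45921272, with 18.6 kb between them. Since both are measured in the same library, the share of IGFBP1 in their summed counts does not depend on how libraries are scaled. That share was 8.29% (95% exact binomial interval 7.46 to 9.17) in PSME4 KD 1 and 5.65% (4.97 to 6.38) in PSME4 KD 2. It was 32.4% (30.9 to 33.9) in control KD 1 and 22.8% (21.4 to 24.2) in control KD 2. The intervals cover counting error only, and within each group the difference was larger than that. The log2 ratio of IGFBP1 over IGFBP3 averaged −3.77 ± 0.42 in PSME4 KD and −1.41 ± 0.49 in control KD (SD, n = 2 each), a 5.11-fold difference with a two-sided exact permutation p of 0.333, the smallest that 2 against 2 libraries can give. The other tested genes within 1 Mb of IGFBP1 were SNHG15, CCM2, TBRG4, ADCY1 and SEPTIN7P2. Their log2 fold changes were −0.11 (SE 0.25), 0.69 (SE 0.25), 0.60 (SE 0.22), 0.35 (SE 0.24) and −0.65 (SE 0.25). None passed the threshold, with adjusted p-values of 0.826, 0.0714, 0.0766, 0.367 and 0.101 by edgeR, so CCM2 and TBRG4 lay just short of it.

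IGFBP4, which binds IGFs until the protease PAPPA cleaves it, was the most abundant of the binding proteins, and its groups overlapped. It had 1033 and 1239 CPM in PSME4 KD, against 1432 and 844.7 CPM in control KD, so that the control KD libraries enclosed those of PSME4 KD. Its log2 fold change was −0.0028 (SE 0.22), and its sign depended on which library was in the fit, with 0.43 when control KD 1 was left out and −0.33 when control KD 2 was. IGFBP2, a binding protein with a preference for IGF2, was low, at 2.96 and 6.17 CPM in PSME4 KD and 6.23 and 3.96 CPM in control KD, and the groups overlapped. IGFBP6, which binds IGF2 much more tightly than IGF1, also overlapped, at 11.4 and 8.92 CPM in PSME4 KD and 13.6 and 8.94 CPM in control KD. Their log2 fold changes were −0.16 (95% interval −0.87 to 0.55) for IGFBP2 and −0.15 (−0.70 to 0.40) for IGFBP6. Leaving out PSME4 KD 1 put IGFBP2 at 0.28, and leaving out PSME4 KD 2 put it at −0.76. Leaving out control KD 1 put IGFBP6 at 0.18, and leaving out control KD 2 put it at −0.41.

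Levels per length place the genes in relation to each other. Per kilobase of merged exons, IGFBP4 stood at 516.4 ± 66.2 CPM per kb in PSME4 KD and 517.4 ± 188.7 in control KD (SD, n = 2 each), above all other members in both groups. In control KD the next were IGFBP1 at 53.9 ± 15 and IGFBP3 at 50.8 ± 3.01 CPM per kb, whose libraries overlapped. This closeness depends on the length used. IGFBP3 has 4571 bases of merged exons but a longest transcript of 2412, while IGFBP1 has 1653 by both measures. With the shorter length IGFBP3 would stand higher, so its place against IGFBP1 rests on the merged exons. The shares of the summed level given below rest on them too. In PSME4 KD, IGFBP3 stood at 55.8 ± 2.19 CPM per kb, and IGFBP1 followed at 11.5 ± 2.87, below IGF1R at 17.9 ± 2.44. Below these the order was the same in both groups, with IRS2, IGFBP6, IRS1, IGF2R, INSR and IGFBP2 going down from 7.97 to 0.957 CPM per kb in PSME4 KD and from 10.2 to 1.07 CPM per kb in control KD. IRS2 and IGFBP6 overlapped in both groups, as did INSR and IGFBP2. In the summed level of the 5 binding proteins per kb, IGFBP1 made up 2.48% and 1.49% in the PSME4 KD libraries and 8.32% and 8.86% in the control KD libraries, while IGFBP4 made up 85.9% and 88.3% in PSME4 KD and 83.9% and 78.7% in control KD.

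The receptor genes had somewhat higher values in PSME4 KD, by differences that did not pass. IGF1R had 225.3 and 273.4 CPM in PSME4 KD, against 182.9 and 211.8 CPM in control KD, without overlap. The log2 fold change of IGF1R was 0.34 (SE 0.20, 95% interval −0.06 to 0.74), with an adjusted p of 0.275 by edgeR. INSR had 12.5 and 17.7 CPM in PSME4 KD, against 12.8 and 10.6 CPM in control KD, with overlap, and a log2 fold change of 0.37 (SE 0.25, 95% interval −0.14 to 0.89). IGF2R, the lysosomal sorting receptor, had 62.3 and 65.6 CPM in PSME4 KD, against 54.8 and 59.2 CPM in control KD, with a log2 fold change of 0.17 (SE 0.20, 95% interval −0.24 to 0.57). The share of INSR in the summed counts of INSR and IGF1R was 5.27% and 6.09% in PSME4 KD and 6.54% and 4.76% in control KD, and overlapped. Each of these receptor genes overlaps other RefSeq genes, IGF1R among them IRAIN and IGF2R among them AIRN, and since the strand setting of the counting is not given, reads of overlapping genes cannot be told apart.

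**Figure D2:**
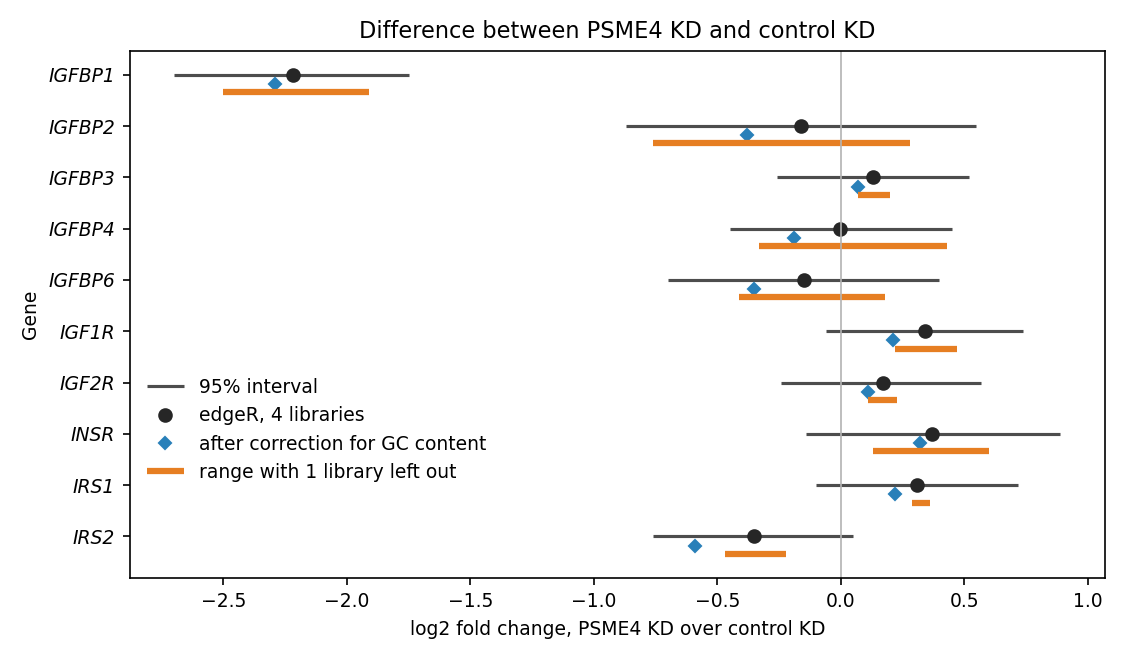
Log2 fold change of PSME4 KD over control KD for each gene (circles) with its 95% interval (lines), the value after a correction for transcript GC content (diamonds) and the range over 4 fits with 1 library left out (thick bars). IGFBP1 lies at −2.22 with its 95% interval ending at −1.75, whereas the 95% intervals of the other 9 genes include 0 and lie within −0.87 and 0.89.

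The adaptors had differences of opposite sign, and neither passed. IRS1, the first adaptor described for the insulin receptor, had 57.7 and 55.8 CPM in PSME4 KD, against 45.5 and 46.1 CPM in control KD. IRS2, which serves the same receptors, had 65.3 and 64.4 CPM in PSME4 KD, against 90.1 and 75.4 CPM in control KD. Neither pair of groups overlapped. The log2 fold changes were 0.31 (SE 0.20) for IRS1 and −0.35 (SE 0.20) for IRS2, with adjusted p-values of 0.335 and 0.261 by edgeR with Benjamini-Hochberg adjustment. The share of IRS1 in the summed counts of the adaptors was 46.9% (95% exact binomial interval 44.6 to 49.2) and 46.4% (44.1 to 48.7) in the PSME4 KD libraries. It was 33.6% (31.2 to 36.0) and 37.9% (35.4 to 40.5) in the control KD libraries. The log2 ratio of IRS1 over IRS2 averaged −0.19 ± 0.02 in PSME4 KD and −0.85 ± 0.19 in control KD (SD, n = 2 each), a difference of 0.65 on the log2 scale with a two-sided exact permutation p of 0.333, again the smallest possible.

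**Figure D3:**
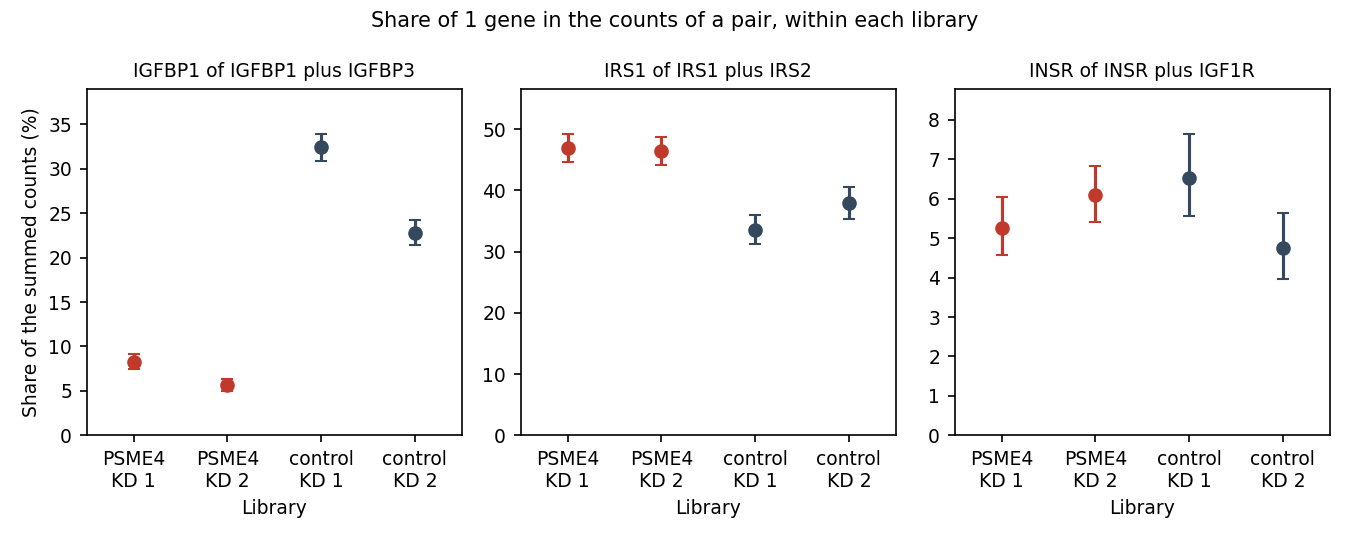
Share of IGFBP1, IRS1 and INSR in the summed counts of a pair of genes within each library, in percent, PSME4 KD libraries left; points are single libraries and bars 95% exact binomial intervals for counting error. The IGFBP1 share is 8.29% and 5.65% in PSME4 KD against 32.4% and 22.8% in control KD, the IRS1 share is higher in both PSME4 KD libraries, and the INSR shares overlap.

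IRS2 depended on a correction for GC content. Genes are no independent replicates, but across the 12973 tested genes with a GC value the fold change had a Spearman rho of 0.40 with GC content, against −0.49 for the difference of control KD 2 over control KD 1 and 0.10 for that of PSME4 KD 2 over PSME4 KD 1. The transcripts of the 10 members had 49.0% to 64.1% GC, with IRS2 at 58.7% and IGFBP1 at 50.2%. After the correction IRS2 was lower in PSME4 KD at −0.59 on the log2 scale, with an adjusted p of 0.0255 by edgeR, and IGFBP1 was at −2.29. IRS1 was then at 0.22, IGF1R at 0.21, and neither passed. In fits with 1 library left out IRS2 stayed between −0.47 and −0.22 and did not pass.

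Promoter letters were looked up for FOXO motifs because IRS2 and IGFBP1 are known FOXO targets. RefSeq promoters (GRCh38.p14, 250 bases before to 50 after the gene start) were at hand for 9 of the 10 members, all but IGFBP1. Of the motifs searched on both strands, CAAAACA was in 1 of the 9, that of IRS2, and in 4.92% of 35116 promoters. GTAAACA was in 1 of the 9, that of IGFBP6, and in 3.42% of all promoters. CAAAATA was in 0 of the 9 and in 4.42% of all promoters. The IRS2 match lies 40 bases before the gene start. The stretch around it is chr13:109786587-109786653 on the minus strand, and its capitals mark CAAAACA read on the opposite strand.
IRS2: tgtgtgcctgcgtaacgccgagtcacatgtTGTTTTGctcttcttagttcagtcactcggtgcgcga
A match of letters is a description and says nothing of binding in these cells.

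Among the other genes of the pathway, in lists drawn from textbook knowledge with earlier results known, 90 of 102 could be tested, and 8 rose, 7 fell and 75 did not pass. That is 16.7% of them, beside 10.6% of all tested genes. The lists held 15 calls in the fit of 4 libraries, and 3 of these genes (IGFBP5, KAZALD1 and SH2B2) reached the filter's 0.751 CPM in both libraries only of the group where they were high. With 1 library left out, edgeR called HMGA2 alone when control KD 1 was missing, and AKT1, GSK3A, HMGA2 and STC1 when PSME4 KD 2 was missing. It called 0 of them when control KD 2 or PSME4 KD 1 was missing. Over all genes the 1426 calls became 53 without control KD 1, 94 when control KD 2 was missing, 43 in the fit lacking PSME4 KD 1 and 281 in that lacking PSME4 KD 2.

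Of 5 further binding proteins and related genes, 2 rose, 1 fell and 2 did not pass. This list thus had 60.0% called, beside 10.6% of all tested genes. Those that rose, IGFBP5 and KAZALD1, had low counts. DESeq2 called IGFBP7 and gave these others no adjusted p. IGFBP7, a secreted relative with low affinity for IGFs, had 183.4 and 236.0 CPM in PSME4 KD, against 361.3 and 308.3 CPM in control KD. The log2 fold change was −0.68 (SE 0.20, adjusted p = 0.0286 by edgeR), and no library of a group reached the other group. IGFBP7 overlaps an antisense gene and other RefSeq genes. IGFBP5, whose gene lies 7.7 kb from IGFBP2 on chromosome 2, was near the detection limit, with 13 and 16 counts in PSME4 KD and 1 and 2 counts in control KD. The ratio of its CPM over both libraries of a group was 7.36 (95% exact interval 2.28 to 37.7 for counting error), the adjusted p was 0.0161 by edgeR, and the gene passed the filter only through the PSME4 KD libraries. KAZALD1, a related secreted protein, had 2.10 and 2.69 CPM in PSME4 KD and 1.04 and 0.602 CPM in control KD (log2 fold change 1.54, SE 0.46), from 73 and 19 counts. It reached the filter's level in 2 PSME4 KD libraries and 1 control KD library, and with GC content corrected it did not pass (edgeR, adjusted p = 0.0648).

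Of 9 genes of binding protein proteases and their inhibitors, 2 fell, 0 rose and 7 did not pass. That is 22.2% of the list, beside 10.6% of all tested genes (6.0% lower). PAPPA, the protease that releases IGFs from IGFBP4, had a log2 fold change of 0.02 (SE 0.20) and did not pass (adjusted p = 0.964 by edgeR). Its inhibitors, the stanniocalcins STC1 and STC2, both fell. STC1 had 22.9 and 29.1 CPM in PSME4 KD, against 49.1 and 52.8 CPM in control KD (log2 fold change −0.97, SE 0.21). STC2 had 19.2 and 15 CPM in PSME4 KD, against 35.5 and 26.7 CPM in control KD (−0.86, SE 0.23). Their adjusted p-values were 0.00429 and 0.0178 by edgeR, and both also passed after the GC correction. With 1 library left out, the log2 fold change ranged from −1.12 to −0.80 for STC1 and from −1.05 to −0.64 for STC2.

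Downstream of the receptors, the list of PI3K, AKT and mTOR genes had 5 higher, 1 lower and 19 that did not pass, of 25. That is 24.0% of a list drawn with earlier results known, beside 10.6% of all tested genes (4.56% higher and 6.0% lower). After the GC correction 3 of the 25 passed, beside 1264 of all 13497 tested genes. The kinase AKT1 had 56.9 and 35.2 CPM in PSME4 KD, against 26.6 and 23.0 CPM in control KD, a log2 fold change of 0.89 (SE 0.23) that was 0.50 without PSME4 KD 1. Its relative AKT2 had 71.9 and 68.2 CPM in PSME4 KD, against 47.4 and 38.2 CPM in control KD (0.71, SE 0.20). GSK3A, a kinase that AKT inhibits, was at 0.88 (SE 0.20), the PI3K regulatory subunit PIK3R2 at 1.16 (SE 0.31) and the mTOR subunit MLST8 at 0.80 (SE 0.26). The adjusted p-values of these 5 genes lay between 0.00662 and 0.0429 by edgeR. Their transcripts had 52.0% to 64.5% GC. After the GC correction AKT1, GSK3A and PIK3R2 still passed, while AKT2 (0.47) and MLST8 (0.59) did not. MLST8 also missed the threshold by DESeq2, with an adjusted p of 0.0644.

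**Figure D4:**
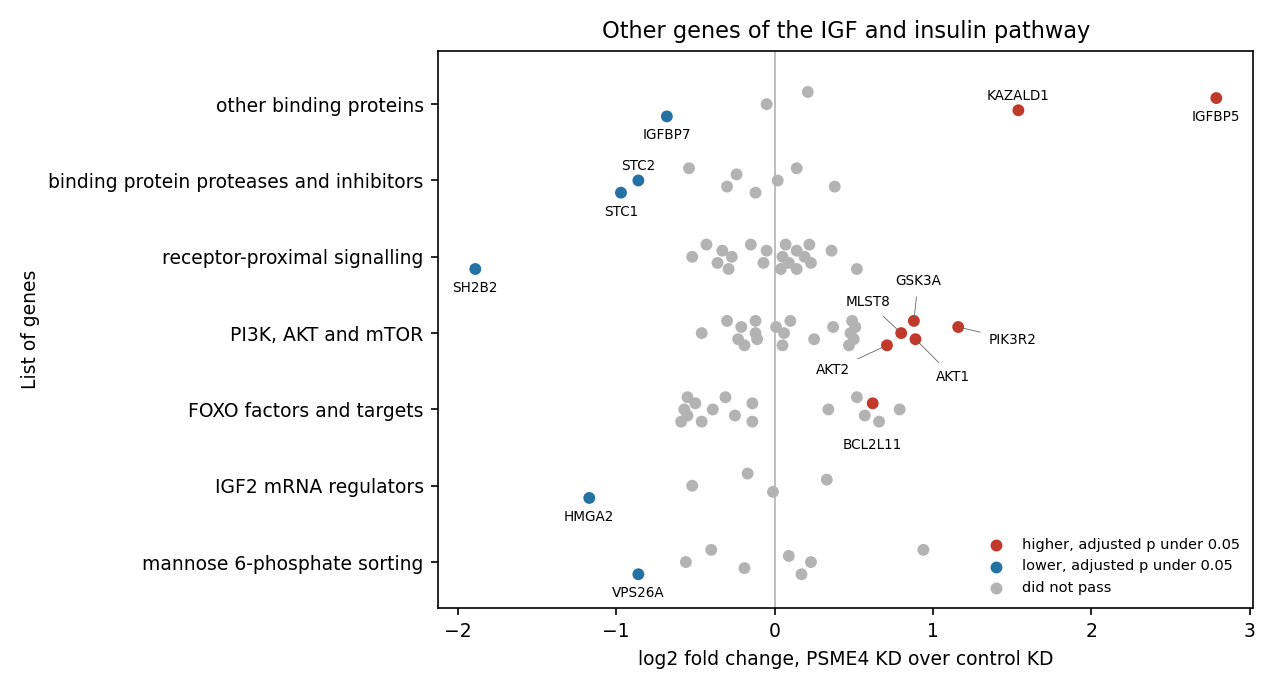
Log2 fold change of PSME4 KD over control KD for tested genes of the pathway, a row for each list; coloured points passed an adjusted p of 0.05 by edgeR (red higher, blue lower in PSME4 KD) and grey points did not. STC1 and STC2 lie at −0.97 and −0.86, 5 coloured PI3K, AKT and mTOR genes lie right of 0, and the fitted value of IGFBP5 rests on 3 counts in control KD.

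The remaining lists held few calls. Called genes made up 4.76% of the genes that act close to the receptors and 5.88% of the FOXO list. They made up 20.0% of the IGF2 mRNA regulators and 12.5% of the mannose 6-phosphate sorting genes, beside 10.6% of all tested genes. Of 21 genes that act close to the receptors, SH2B2, an adaptor of the insulin receptor, passed as lower (log2 fold change −1.89, SE 0.52), and 20 did not pass. SH2B2 had 5 and 9 counts in PSME4 KD, against 22 and 18 in control KD, so that it passed the filter only through the control KD libraries, and DESeq2 gave it no adjusted p. Of 17 FOXO factors and targets, BCL2L11, a pro-apoptotic gene, rose (0.62, SE 0.20, adjusted p = 0.0474 by edgeR) and 16 did not pass. Their values went both ways, with 6 above and 11 below 0 and a median log2 fold change of −0.25. An unadjusted p under 0.05 by edgeR was reached by 52.9% of the list (4 genes above and 5 below 0) and by 26.2% of all tested genes. Over all the pathway lists 33 of 90 genes reached it. The lists were drawn with earlier results known, so these shares are a description. After the GC correction BCL2L11 (0.66) and TXNIP (0.75) were higher and GADD45A (−0.70) was lower. These are 3 of the 17, beside 1264 of all 13497 tested genes called after that correction. Of 5 regulators of IGF2 mRNA, HMGA2, a chromatin protein, fell to 39.3 and 35.7 CPM in PSME4 KD, against 79.3 and 90.2 CPM in control KD (−1.17, SE 0.20, adjusted p = 0.000441 by edgeR). Of 8 genes of mannose 6-phosphate sorting, in which IGF2R acts, VPS26A, a retromer subunit, fell (−0.86, SE 0.23), with −0.48 without PSME4 KD 2, and 7 did not pass.

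The genes whose pattern over the 4 libraries was most like that of IGFBP1, among 10304 genes of at least 5 CPM, were CENPS, UNC13A and SCARA5. Their log2 CPM, centred on the mean of each gene, lay at Euclidean distances of 0.248, 0.264 and 0.324 from that of IGFBP1. Their log2 fold changes were −2.07, −2.08 and −2.22, which are near that of IGFBP1 because the distance picked the genes. INSR, the member with the highest log2 fold change, was most like PTGR1, RNF213 and ATXN2L, at distances of 0.0384, 0.0401 and 0.053. With 4 libraries such likeness is a description of these samples.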

How the data were processed

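Libraries of polyadenylated A549 RNA were prepared with Lexogen's SENSE kit, per the labels' protocols. Titles gave the groups and replicate numbers. The tools cutadapt, STAR and DESeq2 and the build hg38 are named per the submitters' processing notes; of versions, read counter, strand setting and annotation nothing is given. The deposited raw counts per gene were used, without normalisation, per the file headers. The deposited log2 fold change and adjusted p-value of the authors' comparison, per the file headers, are quoted for IGFBP1 only.

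The members and gene lists were chosen with earlier results of these data known. The fit used edgeR 4.0.16 under R 4.3.3: filterByExpr kept 13497 of 15037 genes, TMM scaled the libraries, and glmQLFit and glmQLFTest were fitted with the group as the only term, with Benjamini-Hochberg adjustment and a threshold of 0.05. SEs are the log2 fold change over the square root of F, and 95% intervals use the fitted degrees of freedom. Each library counted as 1 replicate; within each group the 2 libraries were further apart than counting noise. Named genes were all 10 members, PSME4, and of each list the genes past the threshold, up to 6; PAPPA, TXNIP, GADD45A and the genes near IGFBP1 were added after their values were seen. The values of 1 gene counted in the lists are not reported here or plotted. Lengths and GC content come from GENCODE 29, promoters and coordinates from RefSeq. The GC correction subtracts a lowess trend (span 0.4) from each library as an offset. The steps were tested on simulated data. Alternatives were DESeq2 1.42.0, limma 3.58.1 voom, other scalings, filters and thresholds, the replicate number as a block, GC content, and each library left out.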

Additional observations from a re-analysis of the deposited data

How the results depend on the processing

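IGFBP1 kept its direction and its call under each of the 13 alternatives, and the count of members called stayed at 1 except after the GC correction, with 2 (IGFBP1 and IRS2). That correction called 1264 of all 13497 tested genes. The count of all genes called, 1426, was 43 to 281 with 1 library left out and 2240 at a threshold of 0.10, and lay between 1129 (DESeq2) and 1617 (library size only, 853 higher and 764 lower) under the other alternatives. The 15 calls of the pathway lists were 0 to 4 with 1 library left out. The cause of these losses was not tested. Leaving a library out changes both the number of libraries and which of them remain. Signs turned only for members near 0. IGFBP4 was at 0.002 with DESeq2 size factors, 0.0037 by DESeq2, 0.04 with library size only, by limma voom and with the replicate block, and −0.33 to 0.43 with 1 library left out, among them 0.12 (PSME4 KD 1 left out). With 1 library left out IGFBP2 ranged from −0.76 to 0.28, being 0.20 in the fit lacking control KD 1, and IGFBP6 from −0.41 to 0.18, being 0.04 in the fit lacking PSME4 KD 2. With the replicate number as a block, 1554 genes and 1 member were called, and BCL2L11 did not pass (adjusted p = 0.0539, edgeR). Same-numbered libraries share only a number: the correlation of their deviations from the group means was −0.043 over 8748 genes. Below about 20 counts in a group, as for IGFBP5, depth limits what can be said.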
